A study of Mus musculus with 8 samples.

Results

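The genes described here are 56 mouse genes of mitosis and the G2/M transition, a fixed list of symbols that runs from cyclins and mitotic kinases to kinetochore, kinesin, condensin and cytokinesis genes. All 56 symbols were found, each on 1 Ensembl identifier, among the 35275 identifiers of the deposited table. RNA from 8 mouse livers was sequenced. The 4 livers labelled WT and the 4 labelled Triple LKO each comprised 2 females and 2 males. In the LKO (liver-specific knockout) animals the targets are the TTP (tristetraprolin) genes Zfp36, Zfp36l1 and Zfp36l2. Their proteins bind AU-rich stretches of mRNAs and speed their decay. In both genotypes livers 1 and 2 are female and livers 3 and 4 male, and per-liver values follow that order. The strain, the age, the Cre driver, the part of the liver taken and whether it was tumour are not stated in the labels used here. The labels also do not say that each sample is a separate animal, so a p-value here reflects only sample-to-sample spread, which may be technical.

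A cell enters mitosis when cyclin B bound to the kinase CDK1 is switched on. Condensin then compacts the chromosomes, kinesins and other microtubule proteins build the spindle, and kinetochores attach the chromosomes to it. The spindle checkpoint holds back the anaphase-promoting complex (APC/C) until every chromosome is attached. The APC/C then marks securin and cyclin B for destruction, the chromatids part, and the cytokinesis proteins divide the cell. Most hepatocytes of an adult liver are not cycling, and transcripts of these genes are scarce in resting liver. Their transcription in G2 and M is driven by FOXM1 and by MYBL2 with the MuvB complex.

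Depth ranged from 15.1 to 18.8 M fragments per library, and levels are given as FPKM, fragments scaled to transcript length and library size. Of the targeted genes, Zfp36 stood at 29.5 to 61.4 FPKM in the WT livers, 11.6 to 17.4 in LKO-labelled females and 3.66 to 4.51 in LKO-labelled males. Zfp36l1 stood at 10.6 to 21.9, 4.67 to 8.63 and 0.499 to 0.695 FPKM in the same groups. Zfp36l2 was lower than WT in the LKO-labelled males (3.86 to 4.34 against 11.8 to 17.2 FPKM) but higher in LKO-labelled females (18.1 and 33 FPKM), so those 2 libraries go against their label for this gene. Alb, a defining transcript of hepatocytes, was present in every library, between 15100 and 36000 FPKM. Of 12 hepatocyte markers compared, 7 were lower in every LKO-labelled liver than in every WT liver, against 5.72% of the 13573 genes tested. Libraries WT 4 and LKO 1 also stood apart from the other 6 in the share of fragments on Gm42418, a locus that overlaps ribosomal RNA sequence (0.06% and 0.042% against 3.185% to 4.337%).

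Mitosis and G2/M genes were higher in the LKO-labelled livers at nearly every step of the pathway. For 54 of the 56 genes the lowest LKO-labelled liver lay above the highest WT liver, an arrangement found in 17.6% of the 22743 genes with a value above 0 in any library and in 25.6% of the 13573 genes tested (the opposite arrangement in 3.87% and 5.72%). The exceptions were Spc24, a subunit of the NDC80 kinetochore complex, and Pttg1, which encodes securin. The median of the 56 WT means was 0.242 FPKM and that of the LKO-labelled means 3.38 FPKM, and the median fold was 13.8. No LKO-labelled liver had a value of 0 for any of the 56, whereas 11 of the genes were listed at 0 in at least 1 WT liver, where counting error alone allows up to 3 fragments. In bulk tissue, a higher share of dividing cells and more RNA per dividing cell cannot be told apart.

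The genotype effect was tested with limma on log2(FPKM + 1) over the 13573 genes with a mean of at least 0.5 FPKM, with sex as a term. A gene was called at a p under 0.05 after Benjamini-Hochberg adjustment. On this scale the change of a gene with low FPKM is understated. The filter left 54 of the 56 genes, all but Cenpf and Mybl2. Of these, 51 were higher and 0 lower in the LKO-labelled livers, where 24.7% of all tested genes were higher and 5.74% lower. At an unadjusted p under 0.05, 52 were higher and 1, Spc24, was lower, and voom on the recovered fragments also called 0 lower. Since 39 of the 54 had a WT mean under 0.5 FPKM and so entered the test through high values in the LKO-labelled livers, that count is a description only. Among the 15 with a WT mean of at least 0.5 FPKM, 13 were higher, but the share over all genes with such a WT mean was not computed. With no filter, 51 of the 56 were higher, beside 2343 of all 22743 genes. The median change of the 54 was 1.56 on the log2 scale, against 0.394 for all tested genes. That general shift depended on scaling, being 0.057 with median-of-ratios scaling and -0.015 with quantile normalization, and the share of higher among all called genes was 81.1%, 49.6% and 43.2% in turn. Under those scalings 50 and 37 of the mitosis genes were still called higher and 2, Spc24 and Pttg1, were called lower. Of all 13573 tested genes, 1433 and 1045 were then called higher and 1458 and 1376 lower. Without WT 4 and LKO 1, the libraries with little Gm42418, 31 were called higher, beside 1517 of all tested genes.

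**Figure D1:**
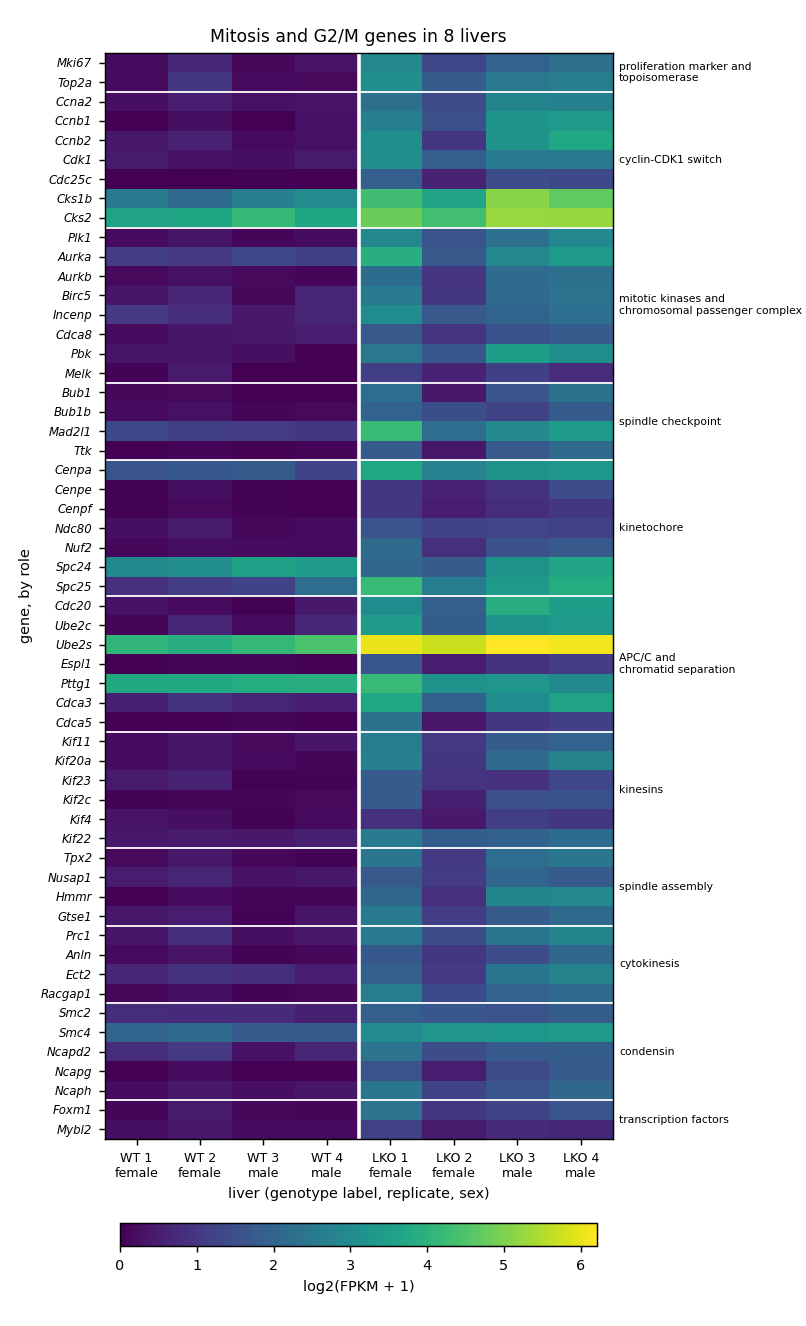
Level of each of the 56 genes (rows, grouped by role) in each of the 8 livers (columns) as log2(FPKM + 1), on a colour scale from 0 to just above 6. The 4 WT columns are dark except for Cks1b, Cks2, Spc24, Ube2s, Pttg1 and a few others, and LKO 2 is the darkest of the LKO-labelled columns, lowest of the 4 in 50 of the 56 genes.

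**Figure D2:**
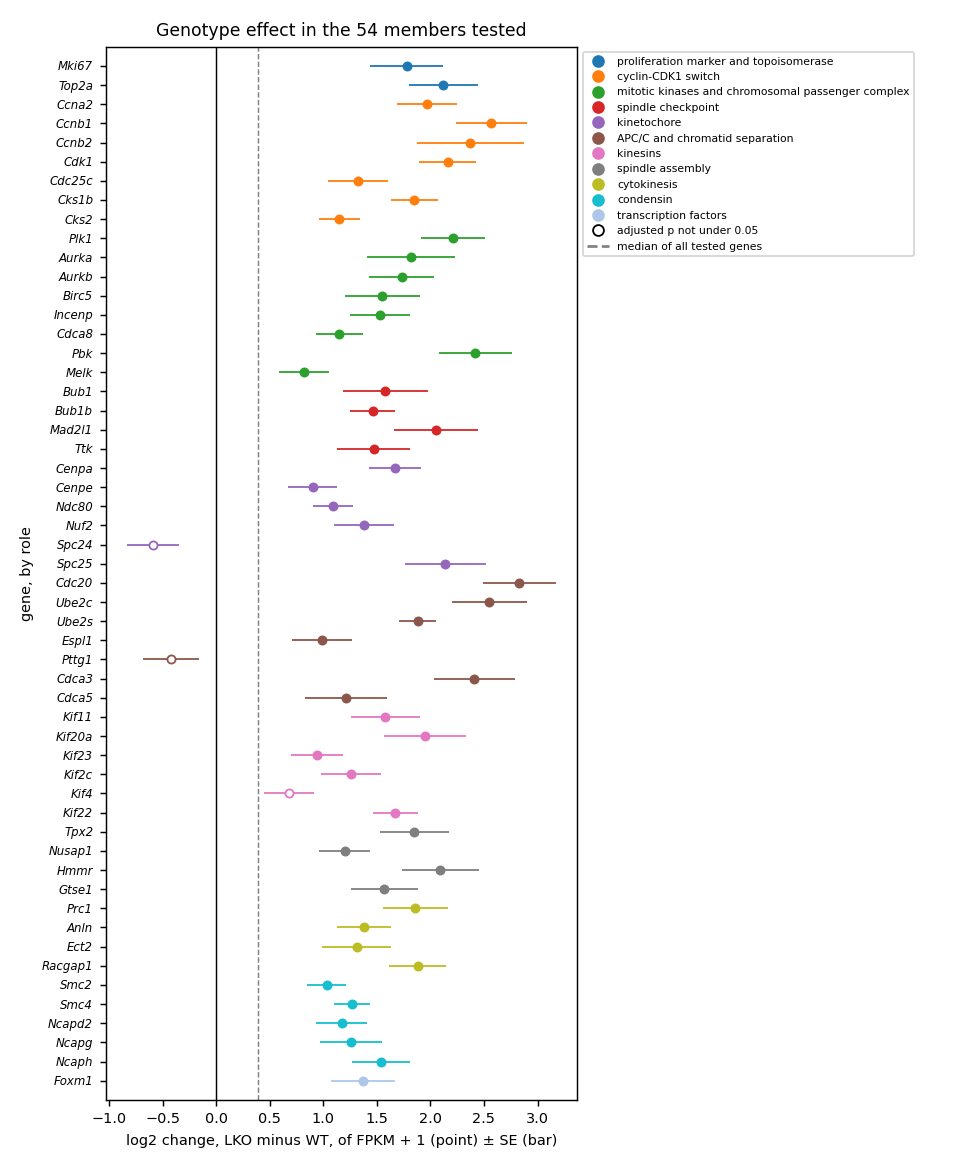
Genotype effect in the 54 genes tested, as the limma log2 change of FPKM + 1 (LKO-labelled minus WT, points) with its SE (bars), coloured by role, with open points where the adjusted p was not under 0.05. The 51 filled points lie to the right of the median of all tested genes (dashed line, 0.394), and the open points of Spc24 and Pttg1 lie below 0.

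Promoters of these genes are known for a pair of elements, the CHR element TTTGAA, bound by MuvB complexes, and the CCAAT box, bound by NF-Y. RefSeq promoters (GRCm38.p6, 250 bases before to 50 after the gene start) were at hand for 46 of the 56 genes, all but Ccna2, Cdc25c, Aurkb, Incenp, Pbk, Spc24, Kif20a, Tpx2, Smc4 and Foxm1. A gene was counted if any of its promoters held the motif, so a gene with several promoters had more chances of a match. Counting both strands, TTTGAA occurred in 32 of the 46 (69.6%), against 20.2% of all 27025 genes with a promoter and 14.7% of the tested genes with one. CCAAT occurred in 33 (71.7%), against 41.1% and 42.4%. Both motifs occurred in 28 (60.9%), against 8.97% and 7.07%. With the 50 bases after the start left out, TTTGAA remained in 17 (37.0%, against 18.3% of all genes with a promoter) and both motifs in 15 (32.6%, against 7.34%). The 100 bases before the RefSeq start are shown for the cyclin B genes and their kinase, for 2 genes of the APC/C pathway and for topoisomerase II alpha. Of these, 84 bases for Ccnb1, 31 for Ube2c, 26 for Cdk1 and 9 for Cdc20 lie inside the GENCODE gene span, whose start is further upstream. Motifs are in capitals, on the strand of the gene, with ATTGG and TTCAAA the reverse-strand forms of CCAAT and TTTGAA.
Ccnb1, chr13:100786487-100786586, minus strand: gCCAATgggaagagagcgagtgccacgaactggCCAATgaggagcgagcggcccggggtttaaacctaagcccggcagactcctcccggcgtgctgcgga
Ccnb2, chr9:70421555-70421654, minus strand: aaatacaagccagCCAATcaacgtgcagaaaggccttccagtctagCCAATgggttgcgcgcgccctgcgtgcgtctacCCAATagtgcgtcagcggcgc
Cdk1, chr10:69352913-69353012, minus strand: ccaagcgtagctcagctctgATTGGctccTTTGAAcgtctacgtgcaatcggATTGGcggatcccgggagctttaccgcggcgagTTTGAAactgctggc
Cdc20, chr4:118437344-118437443, minus strand: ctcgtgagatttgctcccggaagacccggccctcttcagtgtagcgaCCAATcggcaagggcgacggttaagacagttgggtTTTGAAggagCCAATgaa
Ube2c, chr2:164769829-164769928, plus strand: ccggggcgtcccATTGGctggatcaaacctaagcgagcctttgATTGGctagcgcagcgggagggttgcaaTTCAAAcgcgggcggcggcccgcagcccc
Top2a, chr11:99024190-99024289, minus strand: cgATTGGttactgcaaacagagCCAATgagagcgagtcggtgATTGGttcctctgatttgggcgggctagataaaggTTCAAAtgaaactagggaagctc
The Cdk1 stretch has a TTTGAA beginning 71 and 15 bases before the start, each with an ATTGG ahead of it. In Cdc20 the TTTGAA begins 18 bases before the start, and in Ube2c and Top2a its reverse-strand form begins 29 and 23 bases before it. The Ccnb1 and Ccnb2 stretches hold 2 and 3 CCAAT boxes. A match is a description of the letters and was not tested as a binding site.

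The general markers of proliferating cells come first. Counts of called genes by role, given below, are a description only. Of the 54 tested genes, 39 entered the test through high values in the LKO-labelled livers. Mki67, whose product coats mitotic chromosomes, stood at 0.143, 0.631, 0.104 and 0.263 FPKM in the WT livers and 6.62, 1.49, 2.87 and 3.92 FPKM in the LKO-labelled livers. Top2a, which untangles DNA strands before segregation, stood at 0.138, 0.992, 0.127 and 0.114 FPKM in the WT livers and 7.35, 2.51, 4.6 and 5.16 FPKM in the LKO-labelled livers. For both genes LKO 1 was the highest liver and LKO 2 the lowest of the LKO-labelled, WT 2 was the highest WT liver, and the genotypes did not overlap. The mean of Mki67 was 13-fold higher in the LKO-labelled livers (log2 change 1.78 ± 0.34 SE, limma adjusted p = 0.00856) and that of Top2a 14.3-fold (log2 change 2.12 ± 0.32 SE, limma adjusted p = 0.0036).

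All 7 genes of the cyclin-CDK1 switch were higher in the LKO-labelled livers, beside 24.7% of all tested genes. Their median change was 1.97 on the log2 scale. Ccnb1, the main mitotic cyclin, stood at 0, 0.165, 0 and 0.239 FPKM in the WT livers and 5.44, 1.92, 8.38 and 9.24 FPKM in the LKO-labelled livers. It was listed at 0 in WT 1 and WT 3, and the 2 LKO-labelled males were its highest livers. Cdk1, the kinase that cyclin B activates, stood at 0.355, 0.224, 0.192 and 0.367 FPKM in the WT livers and 7.43, 2.6, 4.98 and 4.86 FPKM in the LKO-labelled livers. Its highest liver was LKO 1, and every LKO-labelled liver exceeded the highest WT liver several times over. The log2 changes were 2.57 ± 0.33 (SE, limma adjusted p = 0.00195) for Ccnb1 and 2.16 ± 0.27 (SE, limma adjusted p = 0.00183) for Cdk1. Ccnb2, another B-type cyclin, averaged 0.292 ± 0.153 FPKM (WT) against 7.14 ± 4.56 FPKM (LKO-labelled, SD, n = 4 each), and Ccna2, the cyclin of S and G2 phase, 0.272 ± 0.0979 FPKM (WT) against 4.32 ± 1.96 FPKM (LKO-labelled, SD, n = 4 each). Cks1b and Cks2 encode small subunits that bind CDKs and were already well expressed in WT liver, at 5.14 ± 1.49 FPKM (SD, n = 4) and 12.8 ± 2.7 FPKM (SD, n = 4). They were 4.31-fold and 2.35-fold higher, with log2 changes of 1.85 ± 0.22 (SE, limma adjusted p = 0.0016) and 1.15 ± 0.19 (SE, limma adjusted p = 0.00541), among the smallest folds of the 56 genes. Cdc25c, the phosphatase that removes the inhibitory phosphates of CDK1, had 1 fragment over the 4 WT libraries and 216 over the LKO-labelled ones, a ratio per depth of 209 with an exact 95% interval of 37.1 to 8300 that covers counting error only.

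Mitotic kinases and the chromosomal passenger complex were higher in all 8 of 8 genes, beside 24.7% of all tested genes. The median change was 1.64. Plk1, a kinase of centrosome maturation and mitotic entry, stood at 0.137, 0.267, 0.0754 and 0.15 FPKM in the WT livers and 6.41, 2.03, 3.84 and 6.42 FPKM in the LKO-labelled livers. LKO 1 and LKO 4 were level with each other, and LKO 2 was the lowest of the LKO-labelled livers. Aurkb, the kinase of the passenger complex, stood at 0.123, 0.211, 0.114 and 0.0679 FPKM in the WT livers and 3.55, 0.948, 3.49 and 3.94 FPKM in the LKO-labelled livers. LKO 1, LKO 3 and LKO 4 were close together and LKO 2 lay well below them. Birc5, which encodes the passenger subunit survivin, stood at 0.307, 0.582, 0.0997 and 0.556 FPKM in the WT livers and 4.87, 0.984, 3.42 and 4.12 FPKM in the LKO-labelled livers. The lowest LKO-labelled liver, LKO 2, was closer to the highest WT liver, WT 2, than in Plk1 and Aurkb. Log2 changes were 2.21 ± 0.30 (SE, limma adjusted p = 0.00281) for Plk1, 1.73 ± 0.30 (SE, limma adjusted p = 0.0059) for Aurkb and 1.55 ± 0.35 (SE, limma adjusted p = 0.0142) for Birc5. The other passenger subunits were also higher, Incenp (the scaffold) by 6.02-fold and Cdca8 (borealin) by 6.55-fold. Aurka, which acts at the spindle poles, averaged 1.25 ± 0.196 FPKM (WT) against 8.04 ± 4.88 FPKM (LKO-labelled, SD, n = 4 each). Pbk, a kinase active in mitosis, rose to its highest levels in the males and averaged 0.195 ± 0.139 FPKM (WT) against 6.09 ± 3.48 FPKM (LKO-labelled, SD, n = 4 each) (log2 change 2.42 ± 0.34 SE, limma adjusted p = 0.00282). Melk, a further kinase of cycling cells, showed the smallest change of this group (log2 change 0.82 ± 0.23 SE, limma adjusted p = 0.0296), and lost the call when WT 1, WT 3, WT 4, LKO 3 or LKO 4 was left out (limma adjusted p = 0.0798, 0.0767, 0.0679, 0.0723 and 0.058).

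Spindle checkpoint genes started from low WT levels, and all 4 of 4 were higher in the LKO-labelled livers (24.7% of all tested genes). Bub1, a kinetochore kinase that recruits the other checkpoint proteins, stood at 0.088, 0.12, 0 and 0 FPKM in the WT livers and 3.75, 0.314, 2.12 and 4.02 FPKM in the LKO-labelled livers. It was listed at 0 in both WT males, and LKO 2 reached only 0.314 FPKM. Bub1b, whose product BUBR1 blocks the APC/C, stood at 0.131, 0.209, 0.0755 and 0.108 FPKM in the WT livers and 2.85, 1.82, 1.41 and 2.52 FPKM in the LKO-labelled livers. It was the most even of the 4 among the LKO-labelled livers. Mad2l1, the MAD2 protein that captures CDC20, stood at 1.61, 1.23, 1.12 and 0.998 FPKM in the WT livers and 17.7, 3.7, 6.54 and 9.85 FPKM in the LKO-labelled livers. It was the only checkpoint gene of the list with a WT mean above 1 FPKM, and LKO 1 was its highest liver. Ttk, the MPS1 kinase that starts checkpoint signalling, stood at 0, 0.082, 0 and 0.0692 FPKM in the WT livers and 2.5, 0.312, 2.35 and 3.46 FPKM in the LKO-labelled livers. As with Bub1, LKO 2 was far below the other 3 LKO-labelled livers. The log2 changes were 1.58 ± 0.40 (SE, limma adjusted p = 0.0225) for Bub1, 1.46 ± 0.21 (SE, limma adjusted p = 0.00317) for Bub1b, 2.05 ± 0.39 (SE, limma adjusted p = 0.00797) for Mad2l1 and 1.47 ± 0.34 (SE, limma adjusted p = 0.0161) for Ttk. Bub1 rests on 12 and Ttk on 7 WT fragments in all, so their folds of 48.9 and 57.1 are imprecise. The call of Bub1 was lost without WT 2, WT 3, WT 4 or LKO 4 (limma adjusted p = 0.0516, 0.0606, 0.0541 and 0.0623).

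Kinetochore genes were higher in 5 of the 6 tested (24.7% of all tested genes), and Spc24 stood apart. Cenpa, the histone variant that marks centromeres, stood at 2.05, 2.26, 2.37 and 1.37 FPKM in the WT livers and 12.1, 5.81, 8.18 and 8.86 FPKM in the LKO-labelled livers. All LKO-labelled livers were higher than all WT livers (log2 change 1.67 ± 0.24 SE, limma adjusted p = 0.00307). Ndc80, the microtubule-binding subunit of the NDC80 complex, stood at 0.191, 0.374, 0.101 and 0.15 FPKM in the WT livers and 2.13, 1.38, 1.48 and 1.3 FPKM in the LKO-labelled livers. Its LKO-labelled values were close together (log2 change 1.09 ± 0.19 SE, limma adjusted p = 0.00593). The partner subunits Nuf2 and Spc25 averaged 0.143 ± 0.0316 FPKM (WT) against 2.12 ± 1.07 FPKM (LKO-labelled, SD, n = 4 each) and 1.78 ± 1.34 FPKM (WT) against 11.3 ± 5.27 FPKM (LKO-labelled, SD, n = 4 each). Spc24, the fourth subunit, stood at 6.78, 7.33, 10.8 and 9.81 FPKM in the WT livers and 3.14, 2.48, 8.17 and 11.3 FPKM in the LKO-labelled livers. Both LKO-labelled females were below every WT liver, while the males lay within or just above the WT range. Over both sexes the log2 change was -0.59 ± 0.24 (SE, limma adjusted p = 0.0894), with an exact permutation p of 0.371, and the gene was lower in females alone (log2 change -1.09 ± 0.22 SE, limma adjusted p = 0.00944). In WT livers Spc24 averaged 8.69 ± 1.95 FPKM (SD, n = 4), far above Ndc80 at 0.204 ± 0.119 FPKM (SD, n = 4) per length, although the subunits work in one complex. Cenpe, a kinetochore motor, averaged 0.060 ± 0.0817 FPKM (WT) against 1.02 ± 0.486 FPKM (LKO-labelled, SD, n = 4 each) (log2 change 0.90 ± 0.23 SE, limma adjusted p = 0.022). It lost the call without WT 1, WT 3, WT 4 or LKO 4 (limma adjusted p = 0.0547, 0.0609, 0.0541 and 0.0582). Cenpf, a kinetochore protein of G2 and M phase, was below the filter and averaged 0.0498 ± 0.0504 FPKM (WT) against 0.797 ± 0.289 FPKM (LKO-labelled, SD, n = 4 each), with no overlap and an exact permutation p of 0.0286, the smallest that 70 assignments of 4 among 8 livers allow.

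Genes of the APC/C pathway and of chromatid separation were higher in 6 of 7 (24.7% of all tested genes). Cdc20, the activator of the APC/C and the target of the checkpoint, stood at 0.235, 0.131, 0.0309 and 0.332 FPKM in the WT livers and 7.19, 2.73, 13.6 and 9.95 FPKM in the LKO-labelled livers. The 2 LKO-labelled males were its highest livers, and the change was the largest among the 54 tested genes (log2 change 2.83 ± 0.34 SE, limma adjusted p = 0.00155). Ube2c, the enzyme that starts ubiquitin chains for the APC/C, stood at 0.055, 0.564, 0.126 and 0.634 FPKM in the WT livers and 9.61, 2.59, 8.04 and 9.37 FPKM in the LKO-labelled livers. LKO 2 was well above the highest WT liver, and the other 3 were higher still (log2 change 2.55 ± 0.35 SE, limma adjusted p = 0.00282). Ube2s, which extends those chains, was the most abundant of the 56 genes and averaged 16.9 ± 3.11 FPKM (WT) against 64.5 ± 9.07 FPKM (LKO-labelled, SD, n = 4 each) (log2 change 1.88 ± 0.17 SE, limma adjusted p = 0.000698). It overlaps Rpl28 on the opposite strand, whose mean FPKM was 169 in the WT and 408 in the LKO-labelled livers. No strand setting is recorded in the labels, so the part of Rpl28 in that value was not tested. Pttg1, which encodes securin, the inhibitor of separase, stood at 12.8, 12.7, 13.5 and 13.8 FPKM in the WT livers and 17.6, 8.12, 8.52 and 6.8 FPKM in the LKO-labelled livers. LKO 1 was above and the other LKO-labelled livers below the narrow WT range, so the genotypes overlapped, and the log2 change was -0.42 ± 0.26 (SE, limma adjusted p = 0.23), with an exact permutation p of 0.2. Without LKO 1 the log2 change was -0.70 (limma adjusted p = 0.0196). Espl1, separase itself, averaged 0.0346 ± 0.0409 FPKM (WT) against 1.16 ± 0.762 FPKM (LKO-labelled, SD, n = 4 each) on 16 WT fragments (log2 change 0.99 ± 0.28 SE, limma adjusted p = 0.029). Cdca3, an adaptor for destruction of the mitotic inhibitor WEE1, averaged 0.587 ± 0.212 FPKM (WT) against 8.27 ± 4.19 FPKM (LKO-labelled, SD, n = 4 each). Cdca5, the cohesin protector sororin, had 2 fragments in WT and 220 in LKO-labelled libraries, a ratio of 106 (exact 95% interval 29.1 to 885, counting error only, log2 change 1.21 ± 0.38 SE, limma adjusted p = 0.0421). Both lost the call without WT 1, WT 2, WT 3, WT 4, LKO 3 or LKO 4, at limma adjusted p = 0.053 to 0.0736 for Espl1 and 0.069 to 0.104 for Cdca5.

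Mitotic kinesins were higher in 5 of 6 (24.7% of all tested genes). Kif11, which pushes the spindle poles apart, stood at 0.15, 0.293, 0.115 and 0.288 FPKM in the WT livers and 5.1, 1.03, 2.51 and 2.91 FPKM in the LKO-labelled livers. LKO 1 was the highest and LKO 2 the lowest of the LKO-labelled livers. Kif20a, which carries the passenger complex to the central spindle, stood at 0.152, 0.297, 0.14 and 0.0557 FPKM in the WT livers and 5.52, 1.0, 3.54 and 5.85 FPKM in the LKO-labelled livers. LKO 1 and LKO 4 were close together at the top. Kif23, the motor of the centralspindlin complex, stood at 0.369, 0.516, 0.0324 and 0.0387 FPKM in the WT livers and 2.44, 0.906, 0.84 and 1.52 FPKM in the LKO-labelled livers. The WT females were well above the WT males there, and LKO 3 was the lowest LKO-labelled liver. Kif2c, a microtubule depolymerase of the centromere, stood at 0.0212, 0.0621, 0.0585 and 0.116 FPKM in the WT livers and 2.44, 0.462, 1.87 and 1.95 FPKM in the LKO-labelled livers. LKO 2 was the lowest of its LKO-labelled livers. The log2 changes were 1.58 ± 0.32 (SE, limma adjusted p = 0.0106) for Kif11, 1.95 ± 0.38 (SE, limma adjusted p = 0.00861) for Kif20a, 0.94 ± 0.24 (SE, limma adjusted p = 0.0232) for Kif23 and 1.26 ± 0.28 (SE, limma adjusted p = 0.0137) for Kif2c. Without WT 1, WT 2, WT 3, WT 4 or LKO 4 the call of Kif23 was lost (limma adjusted p = 0.0608, 0.0562, 0.0612, 0.0533 and 0.0645). Kif22, a chromosome arm motor, averaged 0.372 ± 0.055 FPKM (WT) against 3.45 ± 1.02 FPKM (LKO-labelled, SD, n = 4 each) and had the smallest adjusted p of the 6 (log2 change 1.67 ± 0.21 SE, limma adjusted p = 0.00195). Kif4, another chromosome motor, averaged 0.149 ± 0.0981 FPKM (WT) against 0.865 ± 0.386 FPKM (LKO-labelled, SD, n = 4 each) and did not pass (log2 change 0.68 ± 0.23 SE, limma adjusted p = 0.0518), although the genotypes did not overlap. It passed with no filter (limma adjusted p = 0.0433) and with voom (0.0282). Kif20a overlaps Cdc23 and Kif4 overlaps Pdzd11 on the opposite strand.

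Spindle assembly genes were higher in 4 of 4 (24.7% of all tested genes), with a median change of 1.71. Tpx2, the activator of Aurora A on microtubules, averaged 0.149 ± 0.129 FPKM (WT) against 3.42 ± 1.58 FPKM (LKO-labelled, SD, n = 4 each), and Hmmr, a spindle pole protein, 0.0653 ± 0.0558 FPKM (WT) against 4.2 ± 2.71 FPKM (LKO-labelled, SD, n = 4 each). Nusap1, a microtubule bundling protein, averaged 0.379 ± 0.135 FPKM (WT) against 2.24 ± 0.815 FPKM (LKO-labelled, SD, n = 4 each), and Gtse1, which stabilises spindle microtubules, 0.258 ± 0.151 FPKM (WT) against 2.97 ± 1.57 FPKM (LKO-labelled, SD, n = 4 each). Hmmr was higher in both LKO-labelled males, at 6.26 and 6.5 FPKM, than in the females, at 3.23 and 0.812 FPKM.

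Cytokinesis genes were higher in 4 of 4 (24.7% of all tested genes), with a median change of 1.62. Prc1, which bundles the central spindle, stood at 0.297, 0.743, 0.197 and 0.327 FPKM in the WT livers and 4.91, 1.77, 4.4 and 5.97 FPKM in the LKO-labelled livers. LKO 4 was the highest and LKO 2 the lowest LKO-labelled liver. Anln, the anillin scaffold of the contractile ring, stood at 0.133, 0.261, 0.0409 and 0.0977 FPKM in the WT livers and 2.28, 1.0, 1.76 and 3.15 FPKM in the LKO-labelled livers. The same liver, LKO 4, was the highest. Ect2, the exchange factor that activates RhoA at the cell equator, stood at 0.589, 0.893, 0.759 and 0.421 FPKM in the WT livers and 2.75, 1.04, 4.47 and 5.85 FPKM in the LKO-labelled livers. LKO 2 exceeded WT 2 by little (1.04 against 0.893 FPKM). Racgap1, the partner of KIF23 in centralspindlin, stood at 0.0942, 0.197, 0.0371 and 0.0887 FPKM in the WT livers and 5.19, 1.63, 2.85 and 3.35 FPKM in the LKO-labelled livers. It had the largest fold of the 4, 31.2, on 31 WT fragments. The log2 changes were 1.86 ± 0.30 (SE, limma adjusted p = 0.00483) for Prc1, 1.38 ± 0.25 (SE, limma adjusted p = 0.00723) for Anln, 1.31 ± 0.32 (SE, limma adjusted p = 0.0201) for Ect2 and 1.88 ± 0.27 (SE, limma adjusted p = 0.00324) for Racgap1. Ect2 lost the call without WT 3, WT 4 or LKO 4 (limma adjusted p = 0.0561, 0.0502 and 0.0558).

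Condensin genes were higher in 5 of 5 (24.7% of all tested genes) and differed from each other by starting level. Smc2 and Smc4 encode the ATPase core that both condensins share, while Ncapd2, Ncapg and Ncaph encode subunits of condensin I. Smc2 stood at 0.769, 0.664, 0.697 and 0.465 FPKM in the WT livers and 2.66, 2.21, 2.02 and 2.58 FPKM in the LKO-labelled livers. Smc4 stood at 3.05, 3.41, 2.5 and 2.48 FPKM in the WT livers and 6.99, 8.44, 8.83 and 9.04 FPKM in the LKO-labelled livers. These were the most even condensin genes among the LKO-labelled livers, and LKO 1 was the lowest of them for Smc4. Ncapd2 stood at 0.754, 1.04, 0.227 and 0.586 FPKM in the WT livers and 4.2, 1.76, 2.47 and 2.57 FPKM in the LKO-labelled livers. Ncapg stood at 0.0152, 0.133, 0.0139 and 0 FPKM in the WT livers and 2.0, 0.39, 1.7 and 2.44 FPKM in the LKO-labelled livers. WT 2 was the highest WT liver for both, and LKO 2 the lowest of the LKO-labelled. Ncaph stood at 0.156, 0.349, 0.185 and 0.295 FPKM in the WT livers and 4.43, 1.42, 2.11 and 3.18 FPKM in the LKO-labelled livers. Folds were 3.65 for Smc2, 2.91 for Smc4 and 4.22 for Ncapd2, against 11.3 for Ncaph and 40.3 for Ncapg, the last on 11 WT fragments. The log2 changes were 1.03 ± 0.18 (SE, limma adjusted p = 0.00566), 1.27 ± 0.17 (SE, limma adjusted p = 0.00254), 1.17 ± 0.24 (SE, limma adjusted p = 0.0112), 1.54 ± 0.27 (SE, limma adjusted p = 0.00645) and 1.26 ± 0.29 (SE, limma adjusted p = 0.0157) in the same order.

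The transcription factors of the programme were themselves low. Foxm1 stood at 0.0547, 0.361, 0.0881 and 0.0752 FPKM in the WT livers and 4.13, 0.962, 1.43 and 2.05 FPKM in the LKO-labelled livers. Mybl2 stood at 0.165, 0.338, 0.137 and 0.127 FPKM in the WT livers and 1.3, 0.376, 0.70 and 0.645 FPKM in the LKO-labelled livers. For both, LKO 1 was the highest liver and the genotypes did not overlap, with LKO 2 only just above WT 2 for Mybl2. Foxm1 was higher (log2 change 1.37 ± 0.30 SE, limma adjusted p = 0.014), and Mybl2, below the filter, averaged 0.192 ± 0.0992 FPKM (WT) against 0.755 ± 0.39 FPKM (LKO-labelled, SD, n = 4 each) (exact permutation p = 0.0286, the smallest possible).

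Set side by side, the median fold of mean FPKM was 32.6 for the 4 spindle checkpoint genes, 13.2 for the 4 cytokinesis genes, 11.4 for the 6 kinesins and 4.22 for the 5 condensin genes. On the log2(FPKM + 1) scale, which gives less weight to the lowest genes, the medians were 1.52, 1.62, 1.42 and 1.26. In WT livers 1 to 4 the median level of the checkpoint genes was 0.11, 0.164, 0.0377 and 0.0887 FPKM, whereas that of the condensin genes was 0.754, 0.664, 0.227 and 0.465 FPKM. In LKO-labelled livers 1 to 4 the checkpoint medians were 3.30, 1.07, 2.24 and 3.74 FPKM and the condensin medians 4.20, 1.76, 2.11 and 2.58 FPKM, so the groups were closer in level there than in WT. Kinesin medians were 3.63, 0.954, 2.19 and 2.43 FPKM and cytokinesis medians 3.83, 1.33, 3.62 and 4.60 FPKM in the LKO-labelled livers. LKO 1 was the highest liver by the kinesin and condensin medians, and LKO 4 by the checkpoint and cytokinesis medians. The order of the groups is a description of 4 to 6 genes each and was not tested. Without WT 4 and LKO 1, limma no longer called Bub1 and Ttk, Kif20a, Kif23 and Kif2c, Anln and Ect2, or Ncapd2 and Ncapg.

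The LKO-labelled livers were far from uniform. LKO 2 was the lowest of the 4 in 50 of the 56 genes, a rank it held in 23.2% of all tested genes. LKO 1 was the highest in 31 (34.7% of tested genes) and an LKO-labelled male in the other 25 (34% of tested genes). The median ratio to the WT mean over the 56 genes was 18.5 in LKO 1, 5.74 in LKO 2, 11.5 in LKO 3 and 14.6 in LKO 4. LKO 1 exceeded LKO 2 in 55 of 56 genes and at least 2-fold in 46, with a median ratio of 2.98, against 51.2%, 14.7% and 1.02 over all tested genes. The 2 males were close to each other, with no gene 2-fold apart and a median ratio of LKO 3 to LKO 4 of 0.81. Among the WT livers, WT 2 was the highest in 35 of 56 genes (30.1% of tested genes). Relative to the mean of the LKO-labelled males, LKO 1 ranged from 0.323 for Spc24 and 0.506 for Pbk and Hmmr to 2.37 for Foxm1 and 3.49 for Cdca5.

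Marker lists of other cell types were compared liver by liver beside these genes. The summed FPKM of the 8 cholangiocyte markers was 24.1 to 26.4 in WT, 304 in LKO 1, 3170 in LKO 2 and 12.6 to 15.3 in the LKO-labelled males, most of it Spp1, with Krt19 at or under 0.227 FPKM in all 4 LKO-labelled livers and at 0 in the males. The 9 stellate and fibroblast markers summed to 74.2 to 127 in WT, 367 and 1190 in LKO 1 and LKO 2, and 45.0 and 52.6 in LKO 3 and LKO 4. The 8 macrophage markers summed to 112 to 247, then 757 and 1070, then 80.1 and 117. The 8 T and NK cell markers gave 2.62 to 6.61, then 18.6 and 43.1, then 2.97 and 2.88. A sum hides that single markers went both ways. For genotype, limma called 2 of the 8 macrophage markers higher and 3 lower. It called 4 of the 9 stellate and fibroblast markers higher and 2 lower, and 0 cholangiocyte or T and NK cell markers. Over all tested genes 24.7% were higher and 5.74% lower. By sum, LKO 2 was the highest liver in each of these 4 lists, and the males lay at or below the upper end of the WT range. Of the 56 mitosis genes, 50 were lowest in LKO 2 among the LKO-labelled livers, a rank it held in 23.2% of all tested genes. The median ratio of the 56 to the WT mean was 18.5, 5.74, 11.5 and 14.6 in LKO-labelled livers 1 to 4. How these ratios relate to the marker sums was not tested. The 6 neutrophil markers summed to 1.20 to 4.34 in WT, 357 in LKO 1, 54 in LKO 2, 9.32 in LKO 3 and 15.8 in LKO 4, with Mpo at or under 0.195 FPKM everywhere. The 5 megakaryocyte markers summed to 1.19 to 1.98 in WT, 23.0 and 52.0 in the females and 2.99 and 6.05 in the males, mostly Pf4. The neutrophil and megakaryocyte sums thus lay above the WT range in all 4 LKO-labelled livers, with LKO 1 the highest for neutrophil markers. The 7 endothelial markers were 55.1 to 89.6 in WT, 171 in LKO 2 and 47.6 to 55.1 in the other LKO-labelled livers. Erythroid precursor markers, 9 genes, summed to 145 to 256 in WT and to 201, 1670, 494 and 173 in LKO-labelled livers 1 to 4. The 6 B and plasma cell markers summed to 9.38 to 17.0 in WT 1, WT 3 and WT 4 but to 475 in WT 2, mostly Ighm, and WT 2 was also the highest WT liver in 35 of the 56 mitosis genes. They summed to 73.3, 538, 1.23 and 1.22 in LKO-labelled livers 1 to 4. The 12 hepatocyte markers summed to 49100 to 55000 in WT and to 22800 to 34100 in the LKO-labelled livers. For genotype, limma called 0 of them higher and 6 lower, beside 24.7% and 5.74% of all tested genes. The part of these cell types in the level of the mitosis genes was not tested.

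**Figure D3:**
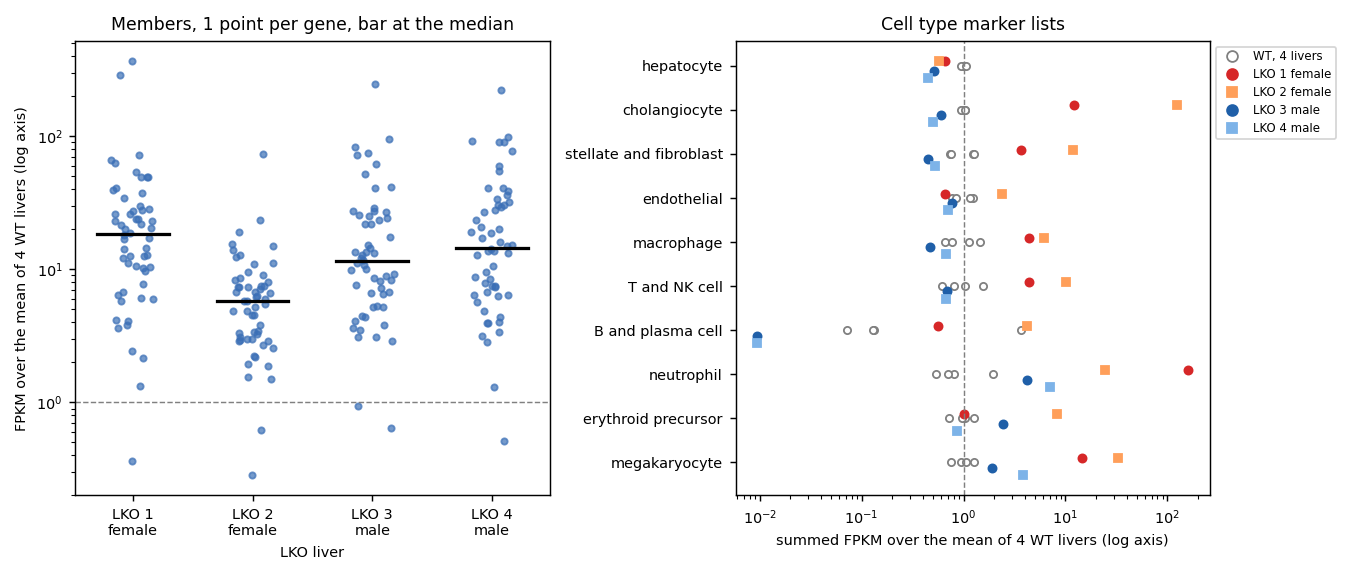
Left, FPKM of each of the 56 genes in each LKO-labelled liver over the mean of the 4 WT livers (log axis), with a bar at the median of 18.5, 5.74, 11.5 and 14.6. Right, summed FPKM of 10 cell type marker lists over their WT mean (log axis), where LKO 2 is far to the right for cholangiocyte, stellate and macrophage markers. The LKO-labelled males lie near or left of 1 in those lists and right of 1 in the neutrophil and megakaryocyte lists.

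Tested within each sex, 38 of the 54 genes were higher and 1, Spc24, was lower in females, where 28.1% of tested genes were higher and 6.23% lower. In males 45 were higher (13.4% of tested genes) and 0 lower (4.09%), with Pttg1 lower only at an unadjusted p under 0.05 and 0 lower by voom. Each contrast sets 2 livers against 2 and takes its spread from all 8. The female count fell to 8 without WT 1, 11 without WT 2, 23 without WT 3 or WT 4 and 25 without LKO 3, LKO 4 or both WT 4 and LKO 1, and was 21 with no filter, 21 with median-of-ratios scaling and 8 with quantile normalization. The male count fell to 7 and 8 without WT 3 and WT 4, 10 and 9 without LKO 3 and LKO 4, and 28 without WT 1 or WT 2. With no filter the male count was 30, with median-of-ratios scaling 45 and with quantile normalization 30. Median changes were 1.40 in females and 1.74 in males on the log2 scale. The difference between the sexes itself was tested as an interaction, in which 0 of the 54 passed, where 5.47% of tested genes had a higher and 1.73% a lower signed change in females than in males. At an unadjusted p under 0.05, 0 were higher and 4 lower in females, namely Pbk, Spc24, Hmmr and Ect2, against 17.6% and 7.88% of tested genes, and voom also gave 0. The log2 change was lower in females for 45 of the 54. That comparison depended on a single library. LKO 1 exceeded LKO 2 in 55 of the 56 genes, with a median ratio of 2.98, against 1.02 over all tested genes. Leaving out either leaves 1 LKO-labelled female, and the interaction then called more of all tested genes. The mitosis genes it called had a lower change in females without LKO 1 and a higher one without LKO 2.

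**Figure D4:**
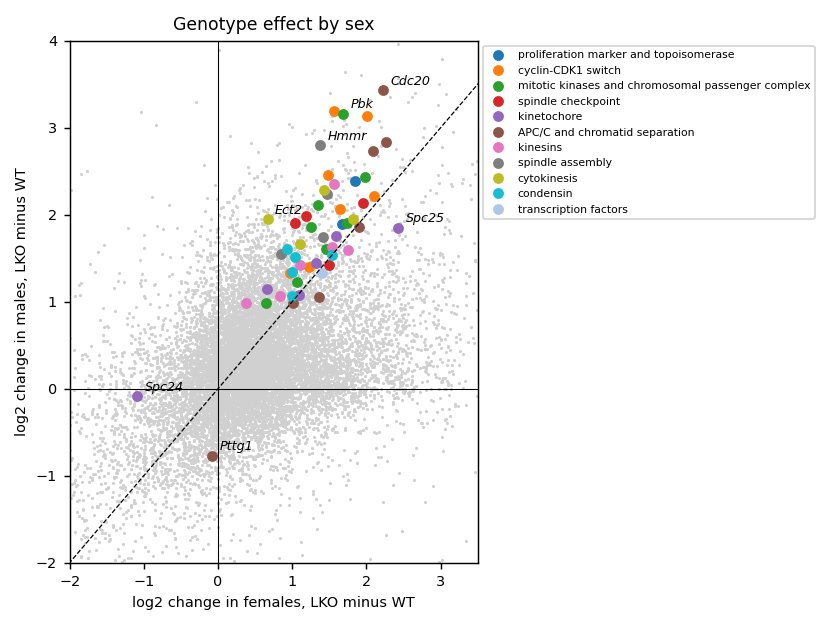
Genotype effect in females (x axis) and in males (y axis) as the limma log2 change of FPKM + 1, with the mitosis genes coloured by role and all tested genes in grey; the axes are cropped and leave out some grey points. The line marks equal change, and 45 of the 54 coloured points lie above it, with Cdc20, Pbk, Hmmr and Ect2 among them and Spc25 below it.

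Other genes of the same processes were compared from 11 lists that share no member with the 56. Each count of called genes is to be read beside the 24.7% higher and 5.74% lower of all tested genes. Some list genes also entered the test through high values in the LKO-labelled livers, such as Cenph and Kif20b with WT means of 0.111 and 0.0839 FPKM. The counts are therefore a description only. Of 36 other kinetochore and checkpoint genes, 31 were tested and 16 were higher, with a median change of 0.79. Cenpt, which links the centromere to the NDC80 complex, stood at 0.954, 0.599, 0.846 and 0.824 FPKM in the WT livers and 7.45, 5.37, 16.9 and 17.7 FPKM in the LKO-labelled livers and Cenph, a neighbour in the inner kinetochore, averaged 0.111 ± 0.105 FPKM (WT) against 1.36 ± 0.349 FPKM (LKO-labelled, SD, n = 4 each). Their log2 changes were 2.69 ± 0.28 (SE, limma adjusted p = 0.000934) and 1.08 ± 0.20 (SE, limma adjusted p = 0.00787). Of 8 other mitotic kinesins, 3 were tested and 2 were higher, Kifc1, a minus-end motor of the spindle (log2 change 1.88 ± 0.24 SE, limma adjusted p = 0.00197), and Kif20b (log2 change 1.41 ± 0.29 SE, limma adjusted p = 0.0112). Among 18 transport kinesins, 14 were tested and 7 were higher, with a median of 0.56. Kif3a (log2 change 1.61 ± 0.27 SE, limma adjusted p = 0.00541) and the light chain Klc2 (log2 change 1.41 ± 0.26 SE, limma adjusted p = 0.00731) had the smallest p there. The 3 subunits particular to condensin II had a median of 0.62, and 1, Ncapg2, was higher (log2 change 1.06 ± 0.20 SE, limma adjusted p = 0.00757), while Ncapd3 missed the threshold (log2 change 0.62 ± 0.21 SE, limma adjusted p = 0.0532). Cohesin and its regulators had 3 of 12 higher, near the 24.7% of all tested genes, and a median of 0.40, close to the 0.394 of all tested genes. The smallest p there were those of Esco2, an acetyltransferase that locks cohesin in S phase (log2 change 1.51 ± 0.25 SE, limma adjusted p = 0.00508), and the ring subunit Rad21 (log2 change 0.69 ± 0.20 SE, limma adjusted p = 0.0325). Of 17 APC/C subunits and regulators, 8 were higher with a median of 0.54. Anapc4 had a log2 change of 1.13 ± 0.16 (SE, limma adjusted p = 0.00311) and Cdc23, which overlaps Kif20a on the opposite strand, one of 1.11 ± 0.17 (SE, limma adjusted p = 0.0037). Of the 187 genes tested from the 11 lists, limma called 93 higher and 0 lower, against 24.7% and 5.74% of all tested genes. At an unadjusted p under 0.05, 2 were lower, and voom called 0 lower. The limma counts too depended on scaling. With median-of-ratios scaling 62 were called higher and 6 lower, beside 1433 and 1458 of all 13573 tested genes. With quantile normalization 36 were called higher and 5 lower, beside 1045 and 1376 of all tested genes.

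Of 20 other cytokinesis genes, 19 were tested and 11 were higher, with a median of 0.71. The share of 24.7% higher among all tested genes is the background here and for the lists that follow. The smallest p were those of the septin Sept6 (log2 change 1.16 ± 0.19 SE, limma adjusted p = 0.00459) and Arhgap11a, a RhoA regulator (log2 change 1.69 ± 0.28 SE, limma adjusted p = 0.00484). Of 26 spindle pole and microtubule genes, 22 were tested and 12 were higher, with a median of 0.78. Tacc3, which stabilises spindle microtubules, averaged 0.486 ± 0.12 FPKM (WT) against 4.26 ± 2.04 FPKM (LKO-labelled, SD, n = 4 each) (log2 change 1.74 ± 0.30 SE, limma adjusted p = 0.00592). Haus8, an augmin subunit, averaged 0.729 ± 0.163 FPKM (WT) against 6.81 ± 4.81 FPKM (LKO-labelled, SD, n = 4 each) (log2 change 1.94 ± 0.32 SE, limma adjusted p = 0.00484), and its change was larger in females than in males (interaction 1.59, limma adjusted p = 0.0269). The interaction called 1 other gene of this list, with a lower change in females. Over all tested genes it called 5.47% higher and 1.73% lower. Among 24 genes of mitotic entry control, 10 were higher with a median of 0.66. The 2 with the smallest p are inhibitors of proliferation. Cdkn1a, the CDK inhibitor p21, stood at 1.48, 1.63, 11.3 and 1.59 FPKM in the WT livers and 94.4, 68, 124 and 60 FPKM in the LKO-labelled livers (log2 change 4.47 ± 0.49 SE, limma adjusted p = 0.00107). Btg2, an antiproliferative gene, averaged 3.64 ± 1.34 FPKM (WT) against 34.5 ± 13.2 FPKM (LKO-labelled, SD, n = 4 each) (log2 change 2.90 ± 0.31 SE, limma adjusted p = 0.00106). Both were higher in all 4 LKO-labelled livers, the same libraries in which the cyclins and Cdk1 were higher. DREAM and MuvB factors had 5 of 15 higher, beside 24.7% of all tested genes, and a median of 0.34, below that of all tested genes. Tfdp1 (log2 change 1.22 ± 0.26 SE, limma adjusted p = 0.0115) and Lin9 (log2 change 0.86 ± 0.20 SE, limma adjusted p = 0.016) had the smallest p. E2F and DNA replication genes had 18 of 27 tested higher and a median of 1.15, the highest median among these lists except for the 3 tested mitotic kinesins. Mcm6, a subunit of the replicative helicase, stood at 1.24, 1.08, 1.18 and 0.729 FPKM in the WT livers and 19.1, 7.35, 9.92 and 12.2 FPKM in the LKO-labelled livers (log2 change 2.61 ± 0.27 SE, limma adjusted p = 0.000963). Cdt1, which loads that helicase, averaged 1.16 ± 0.229 FPKM (WT) against 4.85 ± 0.486 FPKM (LKO-labelled, SD, n = 4 each) (log2 change 1.44 ± 0.16 SE, limma adjusted p = 0.00116). LKO 1 was the highest liver for Mcm6 and LKO 2 the lowest of the LKO-labelled, the same order as for most mitosis genes.

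**Figure D5:**
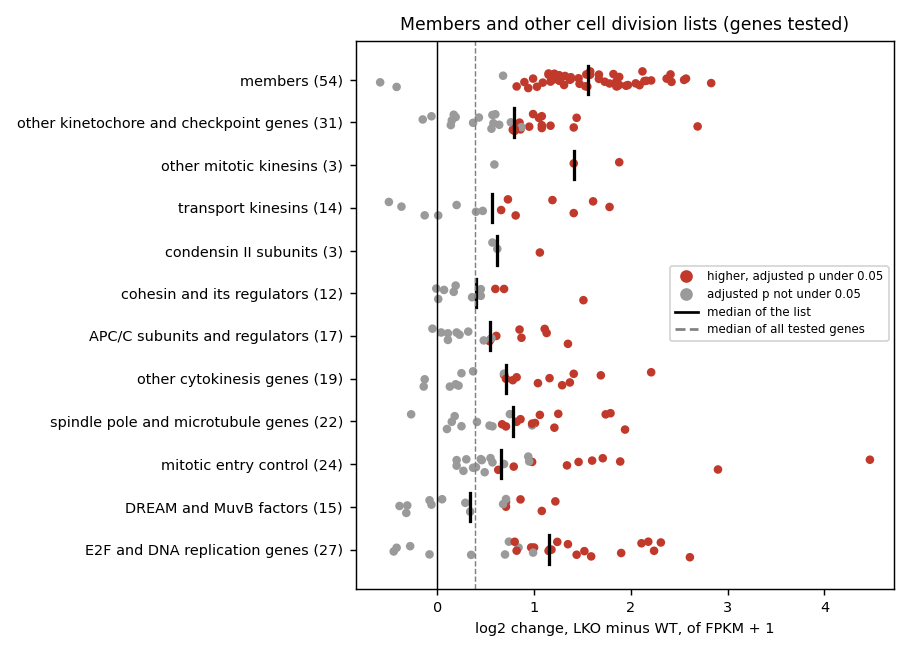
Genotype effect as the limma log2 change of FPKM + 1 (LKO-labelled minus WT) of every tested gene of the mitosis list and of 11 other cell division lists, red where the adjusted p was under 0.05. Black bars mark list medians, from 1.56 for the mitosis genes, 1.41 for other mitotic kinesins and 1.15 for replication genes to 0.40 for cohesin and 0.34 for DREAM and MuvB factors, and the dashed line marks the median of all tested genes, 0.394.

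Since TTP proteins bind AU-rich sequence, the longest annotated 3′ UTR of each gene (GENCODE M21, GRCm38) was searched for the core TATTTAT, on the strand of the gene. It occurred in 14 of the 56 genes (25.0%), against 29.3% of 12310 tested genes with a 3′ UTR. The median 3′ UTR length was 792 bases in the mitosis genes and 1287 bases in the tested genes. The sites of Ccnb1 and Birc5 are shown with the core in capitals, as examples of a single core and of 1 of 3 overlapping cores.
Ccnb1: ttatgtaatTATTTATttgttctta
Birc5: attctttttTATTTATttatttatt
The Ccnb1 core begins at base 425 of a 3′ UTR of 1028 bases, and the Birc5 core at base 785 of 2936. Genes with the core included Bub1, Mad2l1, Ndc80, Prc1, Anln and Ncapg, and genes without it included Mki67 and Top2a. Whether any of these sites is bound or acts on the mRNA was not tested.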

How the data were processed

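Liver RNA-seq libraries of 4 WT and 4 LKO-labelled samples, with 2 females and 2 males each, were analysed, grouped by genotype and sex as the labels give them. The deposited table holds FPKM values, scaled by the authors to the fragments of each library. The tools named per the submitters' processing notes are STAR 2.6.1, fastp, DESeq2 and HTSeq, and the genome build is mm10. What each tool did, with which annotation and which strand setting, is not stated there, so reads of overlapping genes on opposite strands cannot be told apart (Nusap1 with Oip5, Prc1 with Rccd1 and Cdc20 with Elovl1, besides those named above), and named copies exist of Ccnb1, Ccnb2, Cks1b, Kif4 and Kif22.

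Depths and fragments per gene were recovered from the FPKM values, which were whole multiples of 1 fragment (tolerance 0.001) for 100.0% of genes. Symbols were found for 34490 of 35275 identifiers, and 12532 identifiers were at 0 in every library. Coordinates are on GRCm38, 1-based. The genotype effect came from limma-trend (version 3.58.1 in R 4.3.3) on log2(FPKM + 1), for genes whose mean FPKM reached 0.5, with genotype and sex as terms; within-sex effects and the interaction came from 1 mean per genotype and sex. Adjusted p-values are Benjamini-Hochberg over all 13573 genes. For single genes an exact permutation test (two-sided, mean FPKM, 70 assignments) was run. Tables were joined in Python 3.11.15 with pandas 2.3.3, and the fit was tested on simulated data. The members, their roles, the other gene lists and the tests were chosen with earlier results of these data known, and the 3′ UTR search was added after the data were seen. Named genes are all 56 members, with per-liver values for 31 of them, and the 2 genes of each other list with the smallest p. Per-liver values of Spc24, Cenpt, Cdkn1a and Mcm6 were added after their values were seen.

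Alternatives were another pseudocount (0.1), other filters (0.1 or none), both together (added after seeing the data), other scalings, voom, leaving out libraries, genotype alone and a replicate block. Sample titles hold running numbers, and livers of 1 sex with neighbouring numbers were taken as pairs for that block.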

Additional observations from a re-analysis of the deposited data

Results flagged for a closer look

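Each of the 56 genes was screened for outliers in each genotype, with both sexes together. Chance flags about 1 in 20 such groups. In 10 cases 1 liver lay further from the other 3 of its genotype than Dixon's 95% criterion allows. WT 2 was the high liver in 5 of them, with 0.992 FPKM for Top2a, 0.358 for Melk, 0.181 for Cenpe, 0.133 for Ncapg and 0.361 for Foxm1. WT 3 was the high liver in 3, with 0.0285 FPKM for Cdc25c, 16.8 for Cks2 and 0.0547 for Cdca5, of which the first and last are single low counts (1 and 2 fragments). Among the LKO-labelled livers, LKO 2 was low for Aurkb at 0.948 FPKM and LKO 1 high for Pttg1 at 17.6 FPKM. WT 2 also had the highest B and plasma cell marker sum of the WT livers, 475 FPKM against 9.38 to 17.0, and the part of those cells in its mitosis genes was not tested.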

How the results depend on the processing

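No called mitosis gene changed sign under any of the 19 alternatives, but the median change over all tested genes went from 0.394 to -0.015 with quantile normalization. Of the 51 mitosis genes called higher, 29 kept the call in all of them and 22 lost it in at least 1. The count of 51 was 44 to 52 with 1 library left out and 31 without WT 4 and LKO 1, and the count of 0 lower became 2 with median-of-ratios scaling, 2 with quantile normalization and 0 to 1 with 1 library left out. Over all genes, 4132 passed for genotype, 1957 to 4054 with 1 library left out, 2421 with quantile normalization and 1970 without WT 4 and LKO 1. With the replicate block on neighbouring title numbers, 2505 genes and 45 mitosis genes passed; deviations within pairs correlated by 0.131 in females and 0.15 in males, which with 2 livers per mean is 1 value for each sex, and the labels give no shared litter, batch or day.

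Within females, 4657 genes passed (1999 to 6023 with 1 library left out), with 38 mitosis genes higher (8 to 52), 21 with no filter, 21 with median-of-ratios scaling, 8 with quantile normalization and 25 without WT 4 and LKO 1, and 1 lower (0 to 1). Within males, 2374 passed (341 to 4141), 1574 with no filter and 1559 with quantile normalization, with 45 mitosis genes higher (7 to 52) and 0 lower (0 to 1). For the interaction, 978 genes passed (31 to 2837), 577 with a pseudocount of 0.1, 604 with no filter, 197 with both and 27 with voom. Of the mitosis genes 0 to 2 then had a larger and 0 to 20 a smaller change in females with 1 library left out, and 8 a smaller one without WT 4 and LKO 1. Where a single liver is left in a group, its spread is taken from the other groups. The cause of these shifts was not tested, apart from fewer libraries or more genes tested where a setting makes it so. The count of 32 genes with TTTGAA in a promoter became 17 with the bases after the start left out. The edgeR alternative was not run, and voom was the test run on the recovered fragments. Depth limits the genes with few WT fragments, where a value of 0 allows up to 3 fragments.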
